A study of Mus musculus with 36 samples.

Results

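The 7 genes examined here, Airn, Igf2r, Gnas, Zrsr1, Commd1, Mcts2 and H13, form 4 imprinted loci of the mouse, in which a promoter lies within, or runs against, another gene. Their CpGs were those in the annotated gene body plus 2 kb on each side (GENCODE on mm10), which gave 512 CpGs with a coverage of at least 5 reads in each of the 35 embryos compared, of 921363 such CpGs on the autosomes, and 7 genes of 25328 with a measured window. Airn and Igf2r, Zrsr1 and Commd1, and Mcts2 and H13 overlap, so that each pair shares CpGs and is not independent. In single E11.5 mouse brains, 5-methylcytosine was measured in tissue dissected from forebrain to hindbrain, by oxidative bisulfite reduced representation sequencing (RRBS), to ask how the maternal supply of folic acid (FA) and the absence of TET1, a dioxygenase that starts the removal of this mark, shape the methylome.

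All embryos came from heterozygous dams of the 129S6.cg Tet1<tm1Koh> strain, in which a cassette inserted at the start codon removes the full-length TET1, and had both copies intact (WT), 1 copy disrupted (HET) or no intact copy (KO). For some weeks before mating the dams had eaten a control diet with 3 ppm FA, an excess diet with 30 ppm or a depleted diet with 0.1 ppm, and these custom diets also contained an antibiotic that limits folate made by gut bacteria. By the deposited labels, which set the groups throughout, the 30 ppm groups held 3 WT, 5 HET and 6 KO embryos, the 3 ppm groups 4 WT, 3 HET and 5 KO, and the 0.1 ppm groups 2 WT, 2 HET and 5 KO, from 12 litters. A further HET library on 0.1 ppm, the shallowest of the 36, was left out. Of the embryos compared, 1 WT, 2 HET and 9 KO were labelled abnormal, so that genotype and phenotype cannot be told apart fully.

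Libraries held between 23.2 and 197 M CpG calls, with a mean coverage of 10.9 to 61.5 reads per CpG, and their mean level over the shared autosomal CpGs lay between 31.2% and 34.8%. An intronic CpG of Tet1 was read as a check of the labels, and 3 WT or KO libraries lay apart from the others of their genotype there. This CpG was known from earlier results of these data, so it is not an independent check. The library labelled KO replicate 1 of 30 ppm read 45% (20 reads), where the other KO libraries read 69.6 to 100%. The libraries labelled WT replicate 2 of 30 ppm and WT replicate 2 of 0.1 ppm read 36.36% and 40% (33 and 15 reads), where the other WT libraries read 0 to 7.32%. HET libraries ranged from 8.33% to 69.2%, close to WT at one end (replicate 1 of 30 ppm) and to KO at the other (replicate 1 of 0.1 ppm), so that this CpG does not tell every HET library apart. The study's own sample list gives the embryo behind the KO library that lay apart as HET, and those behind the WT libraries that lay apart as WT, as deposited. All libraries were kept under their deposited labels, so that KO values and counts on 30 ppm include an embryo on whose genotype the sources differ. Calls in the 7 genes that change without the 3 WT and KO libraries are given with the counts they change.

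At an imprinted locus the copy from 1 parent carries DNA methylation over a control region, set in the germline and kept through the divisions of the embryo, so that bulk tissue reads near the middle of the scale. Airn, a long noncoding RNA, starts within an intron of Igf2r and runs against it, and the methylated maternal copy of its promoter is silent. Igf2r encodes the receptor that removes IGF2. Zrsr1, a relative of the splicing factor U2AF, and Mcts2, a relative of a translation factor, are genes copied from RNA into introns of Commd1, which acts in copper handling, and H13, a signal peptide peptidase. Gnas encodes the stimulatory G protein alpha subunit and has several upstream promoters: Nesp, methylated on the paternal copy, and XL, Nespas and exon 1A, methylated on the maternal copy. A bulk level is an average over both parental copies and over all cells of the brain, so the parental copy behind a read was not measured.

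The sequences below show where these levels were read. Each is the plus strand of GRCm38.p6 (mm10), 5′ to 3′, in lower case, with the CpGs measured in all 35 embryos in capitals. The first is the whole Airn block, chr17:12742245-12742421, in introns of Airn and Igf2r, with 14 of 14 CpGs measured.
Airn: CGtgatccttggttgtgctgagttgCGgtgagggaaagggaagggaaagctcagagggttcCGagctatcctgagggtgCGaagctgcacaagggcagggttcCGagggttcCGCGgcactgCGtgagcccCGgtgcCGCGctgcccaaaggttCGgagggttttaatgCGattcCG
The second is the RefSeq promoter of Zrsr1, chr11:22971755-22972054, with 7 of 10 CpGs measured, shown as the steady part of that gene.
Zrsr1 start: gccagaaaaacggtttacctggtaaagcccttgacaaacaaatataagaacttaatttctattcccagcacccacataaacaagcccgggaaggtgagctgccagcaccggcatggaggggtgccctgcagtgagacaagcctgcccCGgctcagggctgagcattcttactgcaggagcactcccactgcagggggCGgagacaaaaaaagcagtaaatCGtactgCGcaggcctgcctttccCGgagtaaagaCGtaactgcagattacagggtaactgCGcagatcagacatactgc
The third, chr11:22974027-22974212, lies downstream in coding exons of Zrsr1-201 and Commd1-201 and carries the largest KO and WT difference among the 9 tested blocks, with 4 of 6 CpGs measured.
Zrsr1 edge: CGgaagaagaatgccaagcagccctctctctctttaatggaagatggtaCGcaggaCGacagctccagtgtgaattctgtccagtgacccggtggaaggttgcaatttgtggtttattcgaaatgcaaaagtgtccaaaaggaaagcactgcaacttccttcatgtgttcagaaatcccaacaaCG
The fourth is part of the coding exon after the XL start of Gnas, chr2:174298047-174298346, with 9 of 11 CpGs measured.
Gnas XL: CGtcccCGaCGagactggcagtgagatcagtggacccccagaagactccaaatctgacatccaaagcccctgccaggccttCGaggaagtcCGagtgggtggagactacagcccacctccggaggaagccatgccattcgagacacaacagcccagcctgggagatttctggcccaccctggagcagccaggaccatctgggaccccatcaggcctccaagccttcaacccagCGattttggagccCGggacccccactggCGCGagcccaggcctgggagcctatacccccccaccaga
The fifth lies just upstream of the Mcts2 start in an intron of H13, chr2:152686844-152686971, with 16 of 16 CpGs measured.
Mcts2: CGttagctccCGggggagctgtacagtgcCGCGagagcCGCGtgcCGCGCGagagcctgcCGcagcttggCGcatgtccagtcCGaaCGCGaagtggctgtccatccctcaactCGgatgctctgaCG

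The motif TGCCGC, the core bound by the zinc finger protein ZFP57 on methylated imprinted copies, was searched on both strands. It occurred 2 times in the printed Airn sequence, 3 times in the Mcts2 sequence and 0 times in the other 3. In windows of 300 bases at block centres (blocks are defined below) it was present in 13.57% of 1430 blocks, and in 2 of 13 blocks of the 7 genes, both at Airn. Over their whole length, which varies, 5 of these blocks held it: 6 times in the second XL block, 3 times in the Mcts2 block, 2 times each in the Nesp block and the second Airn block, and 1 time in the exon 1A block. The share of all 1430 blocks that held it over their whole length is not given, so this count has no background. It was present in 11.6% of 31396 RefSeq promoters and in 2 of 11 promoters of the 7 genes, 1 of Mcts2 and 1 of Commd1. The 13 blocks of the 7 genes had a median of 21 CG dinucleotides per 300 bases, against 11 over all blocks. These matches describe letters only, and no binding was measured.

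Intermediate methylation was concentrated in short stretches. Of the 68 CpGs measured at Zrsr1, 67 had a WT mean between 35% and 65%, and so had 28 of 30 at Mcts2. At Gnas the class held 157 of 251 CpGs, at Airn 17 of 69 and at Igf2r 16 of 72, and at Commd1 and H13 it held 67 of 88 and 29 of 87, shared almost wholly with the gene inside. At the longer genes most other CpGs lay under 20% in WT embryos, namely 38 at Airn, 38 at Igf2r, 71 at Gnas, 19 at Commd1 and 37 at H13. KO means exceeded WT means by at least 10 points at 14 CpGs of Gnas, 6 of Zrsr1 (the same positions are counted in Commd1), 4 of Airn, 3 of H13 and 2 of Igf2r, and no CpG of the 7 genes was lower by as much. The matching share over all autosomal CpGs is not given, so these counts cannot be read as particular to these genes.

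Starts of transcription split into both kinds. Within 1 kb of the start, WT embryos read 3.27% ± 1.41 (SD, n = 9) at Igf2r, 0.95% ± 0.789 at the main Gnas promoter, 0.434% ± 0.169 at Commd1 and 1.12% ± 0.894 at H13. These are the starts of the broadly used protein-coding transcripts, and all were close to unmethylated. In the same windows the start of Airn read 48.4% ± 7.23, that of Zrsr1 46.9% ± 3.32 and that of Mcts2 49.7% ± 5.74. The upstream starts of Gnas read 43.2% ± 3.97 at Nesp, 52.7% ± 1.85 at XL and 45.1% ± 2.19 at exon 1A, so that within the 1 gene both kinds stood side by side. In KO embryos (n = 16) the main Gnas promoter still read 0.646% ± 0.255 and the Igf2r start 3.55% ± 1.5, and the intermediate starts read 50.45% ± 9.30 at Airn, 47.3% ± 2.27 at Zrsr1, 47.8% ± 4.99 at Mcts2, 44.3% ± 4.56 at Nesp, 57.4% ± 4.79 at XL and 51.4% ± 3.77 at exon 1A. The KO mean was above the WT mean at 5 of these 6 intermediate starts and below it at Mcts2, as it was at the main Gnas promoter.

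**Figure D1:**
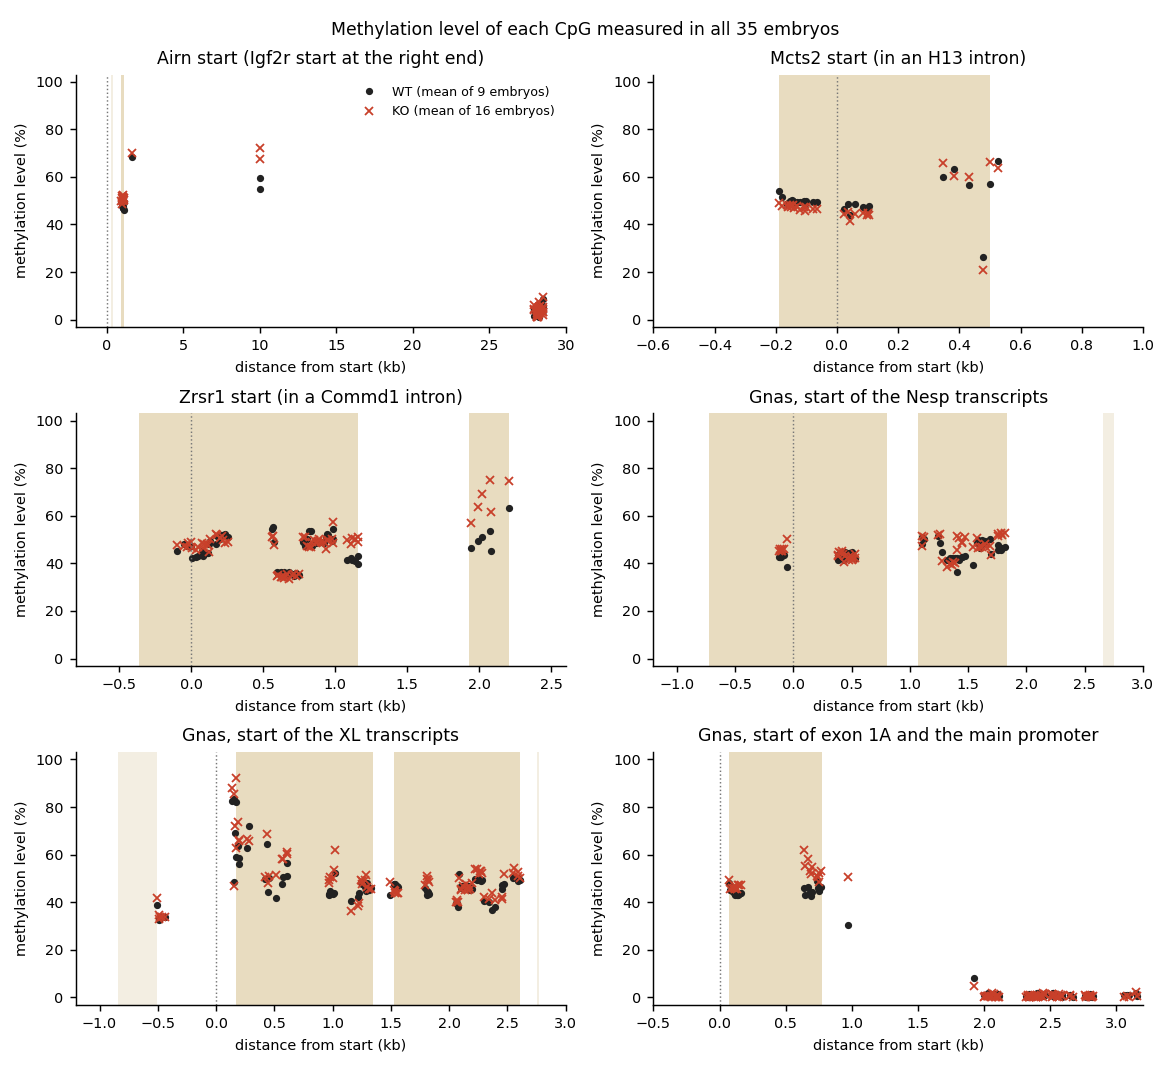
Methylation level (%) of each CpG measured in all 35 embryos against its distance from a transcript start, in 6 panels, as the mean of 9 WT embryos (dots) and 16 KO embryos (crosses). Dark shading marks blocks that were tested and pale shading blocks with too few shared CpGs, and a reader should see the flat stretches of intermediate level at Airn, Mcts2, Zrsr1 and Gnas, with crosses above dots mainly at the downstream end of Zrsr1 and beyond the Gnas exon 1A start.

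Blocks were then defined over the whole genome from the 4 WT embryos on 3 ppm. A block was a run of CpGs with a mean of 35 to 65% there, neighbours at most 500 bp apart, at most 1 CpG in a row outside the range, and at least 5 inside it. The autosomes held 1430 such blocks, of which 13 lay in the 7 genes, and 963 and 9 of these had at least 3 CpGs measured in every embryo. The 4 that had too few were chr2:174286974-174287069, chr2:174297018-174297352 and chr2:174300612-174300634 in Gnas and chr17:12741607-12741740 in Airn, with WT 3 ppm means of 41.43%, 42.91%, 56.3% and 47.9%. Because the WT embryos on 3 ppm chose the blocks, values on 3 ppm are given as a description with no test, and tests used the 30 and 0.1 ppm embryos with diet as a covariate.

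Block limits were set by the rule above, on levels in the 4 WT embryos on 3 ppm, and the same levels are given here. That a neighbouring CpG lay outside the range therefore follows from the rule. The step to that CpG was larger in some places than in others, and its size was not tested. At the Zrsr1 start block the first CpG inside read 60.0% and the one 17 bp before it 74.8%, and the last inside read 38.5% with 34.51% only 2 bp beyond. The first Gnas XL block began at 59.5% with 87.0% 5 bp before it, and ended at 53.2% with 33.8% 19 bp after. The Gnas exon 1A block ended at 41.98% with 32.7% 39 bp beyond, the Mcts2 block at 59.0% with 68.6% 25 bp beyond, and the Airn block at 46.1% with 70.5% 496 bp beyond.

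At the Airn block, chr17:12742245-12742420, the 14 CpGs were at intermediate methylation in every genotype. WT embryos read 45.33, 55.0 and 58.5% on 30 ppm, 45.4, 42.92, 53.0 and 44.9% on 3 ppm, and 43.6 and 43.8% on 0.1 ppm. KO embryos read 36.24% at the lowest, 51.0% at the median and 67.7% at the highest on 30 ppm, 46.8, 55.2, 54.81, 55.8 and 39.4% on 3 ppm, and 62.7, 42.5, 41.1, 55.1 and 55.8% on 0.1 ppm. KO embryos lay on both sides of the WT embryos, and the groups overlapped on every diet. The difference of the KO and WT means was of opposite sign on the 2 tested diets, -3.57 points on 30 ppm and 7.76 on 0.1 ppm, and neither was called. Over 30 and 0.1 ppm together the KO mean was 50.4% against 48.3% in WT, a difference of 2.09 points that did not pass the test (quasi-binomial F test, adjusted p = 0.882). Leaving out each embryo in turn gave 0.19 to 3.49 points, and without the 3 libraries that go against their Tet1 values it was 3.90 (adjusted p = 0.426). The untested difference on 3 ppm was 3.89 points. The spread within groups was 7.65 points (SD), and 34 of 35 embryos lay between 35% and 65%. That count includes the 4 WT embryos on 3 ppm that chose the block.

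The Mcts2 block, chr2:152686844-152687536, covers sequence upstream of Mcts2, its start and the first part of its exon, within an intron of H13, and had 29 CpGs. WT embryos read 51.2, 46.8 and 57.7% on 30 ppm, 47.1, 46.4, 45.55 and 42.8% on 3 ppm, and 45.63 and 59.2% on 0.1 ppm. KO embryos read 38.2, 46.9 and 55.4% (lowest, median, highest) on 30 ppm, 48.5, 46.3, 50.4, 41.83 and 42.5% on 3 ppm, and 42.8, 47.5, 52.6, 50.52 and 51.9% on 0.1 ppm. KO embryos were spread below and among the WT embryos on 30 and 0.1 ppm, and the ranges overlapped on every diet. The KO mean was 47.9% against 52.2%, a difference of -4.26 points (adjusted p = 0.143). Without WT replicate 1 of 0.1 ppm it was -7.66 points and passed the test (adjusted p = 0.0372), with 1 WT embryo left on that diet. Leaving out each embryo in turn gave -7.66 to -0.86 points, and without the 3 libraries that go against their Tet1 values it was -1.98 (adjusted p = 0.223). The untested difference on 3 ppm was of the other sign, 0.47 points.

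The Zrsr1 start block, chr11:22971641-22973159, covers the Zrsr1 start and the untranslated part of its exon, within an intron of Commd1, and was the steadiest of the 9. WT embryos read 44.3, 46.0 and 50.2% on 30 ppm, 49.4, 51.1, 43.8 and 40.6% on 3 ppm, and 46.9 and 47.2% on 0.1 ppm. KO embryos read 44.9, 46.0 and 50.8% (lowest, median, highest) on 30 ppm, 48.8, 49.9, 48.4, 48.4 and 48.6% on 3 ppm, and 48.1, 48.4, 44.8, 44.3 and 48.6% on 0.1 ppm. The KO values fell within or near the WT range, and the spread within groups was 2.34 points over 61 CpGs. The KO mean was 46.8% against 47.0%, a difference of -0.18 points (adjusted p = 0.745), and the untested difference on 3 ppm was 2.61 points.

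The second block of Zrsr1, called the edge here, lies further into the gene at chr11:22973934-22974211, in coding exons of Zrsr1-201 and Commd1-201. Its 6 CpGs read 56.0, 61.4 and 33.3% in WT on 30 ppm, 45.62, 49.0, 55.3 and 62.6% on 3 ppm, and 47.9 and 54.6% on 0.1 ppm. KO embryos read 47.5, 69.3 and 73.2% (lowest, median, highest) on 30 ppm, 53.4, 64.1, 77.3, 79.2 and 72.5% on 3 ppm, and 63.9, 68.1, 81.3, 59.4 and 65.1% on 0.1 ppm. On 0.1 ppm the 5 KO embryos lay above both WT embryos, and on 30 and 3 ppm the groups overlapped. KO and WT embryos were apart on 0.1 ppm in 53.3% of all blocks. The KO mean over 30 and 0.1 ppm was 66.4% against 50.8%, higher by 15.7 points (adjusted p = 0.0118), and the untested difference on 3 ppm was 16.2 points. Over all diets HET embryos read 44.0% at the lowest, 53.1% at the median and 70.8% at the highest, and their mean of 55.3% ± 8.75 (SD, n = 10) lay between those of WT (51.8% ± 9.01, n = 9) and KO (67.3% ± 9.00, n = 16). Each embryo had 49 to 605 reads summed over these 6 CpGs, fewer than at any other block, or 8.17 to 101 reads per CpG. The spread within groups was 9.63 points (SD). Counting error at the median of 18 reads per CpG would be 11.8 points (SD) at the middle of the scale, if the same molecules covered all these CpGs.

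Levels of single CpGs are given along Zrsr1. At position 22972981 of chromosome 11 the mean was 49.4% in WT and 50.2% in KO, and at 22973087 it was 41.6% and 49.9%. Past a gap without covered CpGs it was 49.5% and 63.7% at 22973999, 50.9% and 69.3% at 22974027 and 53.5% and 75.04% at 22974076. The last CpG, at 22974211, read 63.4% and 74.7%. At the last CpGs HET means (51.8%, 53.7%, 57.02% and 69.1% at these last 4 named positions) lay between WT and KO. Whether the difference changes along the gene was not tested.

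Of the 5 tested Gnas blocks, the first XL block and the exon 1A block passed the test and the other 3 did not. At the Nesp block, chr2:174283595-174285126 (23 CpGs), which covers the start of the paternally methylated transcript, embryos read 39.6 to 52.5% in WT (median 43.1%) and 36.8 to 52.7% in KO (median 44.4%), and the KO mean on 30 and 0.1 ppm was 45.2% against 42.07% (3.17 points, adjusted p = 0.107). The adjoining block, chr2:174285389-174286151 (31 CpGs), lies in coding sequence of the same Nesp transcripts and also holds an annotated Nespas start. There WT embryos read 39.6 to 50.2% and KO embryos 42.04 to 53.1%, with means of 45.04% and 48.1% (3.07 points, adjusted p = 0.172). At both blocks KO means were above WT means on 30 and 0.1 ppm and below them on 3 ppm, where the untested differences were -2.48 and -2.47 points, and neither was called. The adjusted p of the Nesp block passed without the 3 libraries that go against their Tet1 values (4.87 points, 0.0324), with each embryo's own CpGs (3.70 points, 0.0241) and without KO replicate 5 of 0.1 ppm (3.82 points, 0.0428), in each case under the 5 points a call required. The second XL block, chr2:174299385-174300463 (43 CpGs), had means of 45.5% in WT and 46.3% in KO (0.84 points, adjusted p = 0.834), and leaving out each embryo in turn gave 0.07 to 2.09 points. On 30 ppm alone this block differed by -0.73 points and on 0.1 ppm by 2.41. Its untested difference on 3 ppm was 1.3 points.

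The first XL block, chr2:174298031-174299202 (32 CpGs), lies in the coding exon that follows the XL start. WT embryos read 45.31, 51.1 and 51.6% on 30 ppm, 48.3, 52.8, 52.7 and 48.1% on 3 ppm, and 44.2 and 48.8% on 0.1 ppm. KO embryos read 51.0, 54.1 and 59.8% (lowest, median, highest) on 30 ppm, 51.6, 52.3, 52.6, 51.4 and 55.85% on 3 ppm, and 51.3, 50.34, 51.97, 50.49 and 53.5% on 0.1 ppm. On 0.1 ppm all 5 KO embryos lay above both WT embryos, while the ranges overlapped on 30 and 3 ppm. KO and WT embryos were apart on 0.1 ppm in 53.3% of all blocks. The KO mean on 30 and 0.1 ppm was 53.0% against 47.9%, higher by 5.12 points (adjusted p = 0.00237), just past the 5 points a call required, and the untested difference on 3 ppm was 2.28 points. With blocks drawn from CpGs at 30 to 70% the XL blocks joined into 1, chr2:174297018-174300634, which was not called (2.31 points, adjusted p = 0.0682). Leaving out WT replicate 1 of 30 ppm, WT replicate 1 of 0.1 ppm, KO replicate 5 of 30 ppm or KO replicate 5 of 0.1 ppm gave 4.11, 3.97, 4.59 and 4.87 points, which ended the call by size alone.

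The exon 1A block, chr2:174327836-174328544 (21 CpGs), lies in the untranslated first exon of Gnas-202. WT embryos read 46.5, 45.76 and 48.5% on 30 ppm, 43.2, 45.59, 43.5 and 42.7% on 3 ppm, and 46.3 and 41.42% on 0.1 ppm. KO embryos read 42.5, 48.6 and 54.9% (lowest, median, highest) on 30 ppm, 49.4, 53.0, 49.2, 48.9 and 51.0% on 3 ppm, and 53.8, 53.3, 55.5, 53.5 and 49.7% on 0.1 ppm. All KO embryos lay above all WT embryos on 3 and on 0.1 ppm, and the groups overlapped on 30 ppm. On 0.1 ppm 53.3% of all blocks were apart in this way. No such share is given for 3 ppm, where the WT embryos chose the blocks. On 30 ppm alone KO was higher by 1.41 points (quasi-binomial adjusted p = 0.506) and on 0.1 ppm, with 2 WT embryos, by 9.33 (0.00826). The KO mean on 30 and 0.1 ppm together was 50.7% against 45.4%, higher by 5.37 points (adjusted p = 0.0354), with an untested 6.54 points on 3 ppm. Without the 3 libraries that go against their Tet1 values the difference was 4.03 points and was not called (adjusted p = 0.0878), and leaving out 1 embryo ended the call in 6 of 16 cases (KO replicates 2 and 5 of 30 ppm, KO replicates 3 and 4 of 0.1 ppm, and WT replicates 1 and 2 of 0.1 ppm), with adjusted p between 0.0507 and 0.132 and 4.16 to 6.58 points. The lowest value in any genotype, 34.8%, belonged to HET replicate 2 of 30 ppm.

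**Figure D2:**
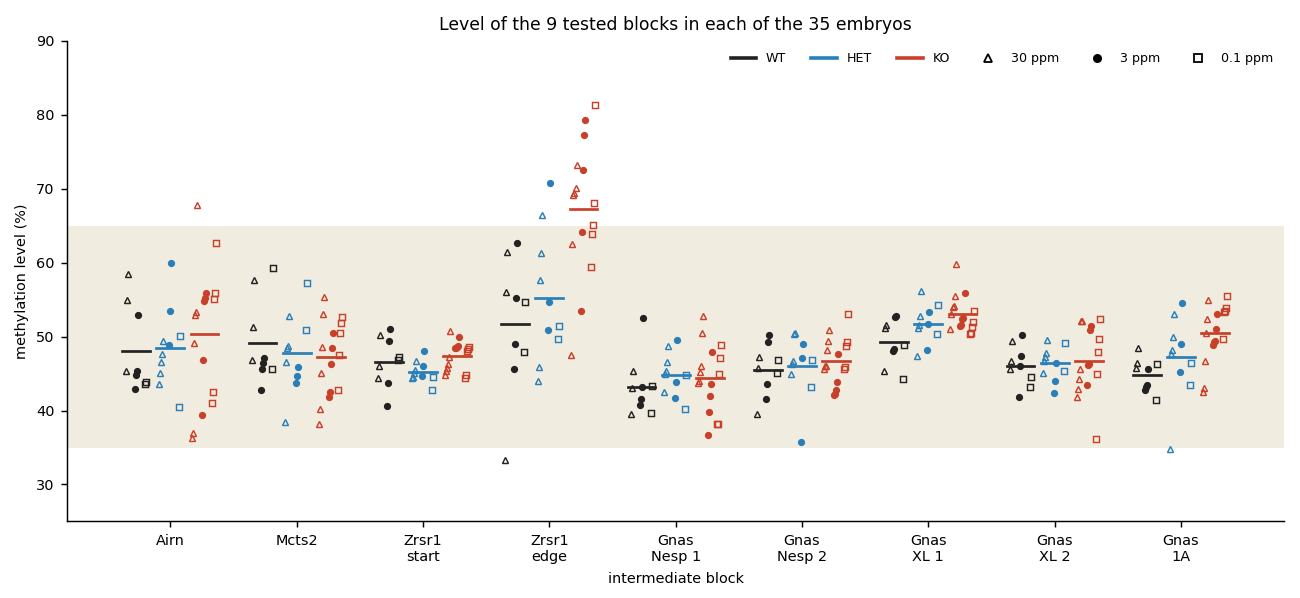
Methylation level (%) of each of the 35 embryos at the 9 tested blocks, coloured by genotype, with the marker showing the diet, a bar at each genotype mean, and a band from 35% to 65%. All 35 embryos sat in the band at 6 blocks, 34 at Airn and at Gnas exon 1A, and 22 at the Zrsr1 edge, where KO embryos reached 81.3%. These counts include the 4 WT embryos on 3 ppm that chose the blocks, and the matching share over all blocks is not given.

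The share of blocks called in these genes was lower than over all blocks, and the difference between the shares was not tested. Over 30 and 0.1 ppm, 3 of 9 were called, all higher in KO, where 68.2% of all 963 blocks were called, 655 of the 657 called blocks in the direction of higher KO. The median difference was 3.07 points in the 9 blocks (-4.26 to 15.7) and 13.1 points over all blocks (quartiles 7.14 and 19.1). 6 of the 9 differed by under 5 points, as did 15.4% of all. In 0 of the 9 were all KO embryos apart from all WT embryos over both diets, as they were in 7.89% of all, and on 0.1 ppm alone they were apart in 3 of 9 and in 53.3% of all. On 30 ppm alone 1 of 9 was called, the first XL block (5.24 points, adjusted p = 0.0367), where 41.6% of all were, and 3 of 9 were called without WT replicate 2 and KO replicate 1 of that diet. The share of all blocks called was not recorded for this or any other fit that left libraries out, so such counts have no background. On 0.1 ppm alone 2 of 9 were called, exon 1A (9.33 points, adjusted p = 0.00826) and the Zrsr1 edge (16.3 points, adjusted p = 0.0491), where 52.2% of all were. Without WT replicate 2 of 0.1 ppm, which left 1 WT embryo, 3 of 9 were called on that diet, and without all 3 libraries 2 of 9 over both diets. A two-sided exact permutation test of block levels over embryos, adjusted over all blocks, called the same 3 blocks (first XL block adjusted p = 0.00501, Zrsr1 edge 0.0148, exon 1A 0.0449) and 65.5% of all, with a smallest possible p of 0.000567.

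**Figure D3:**
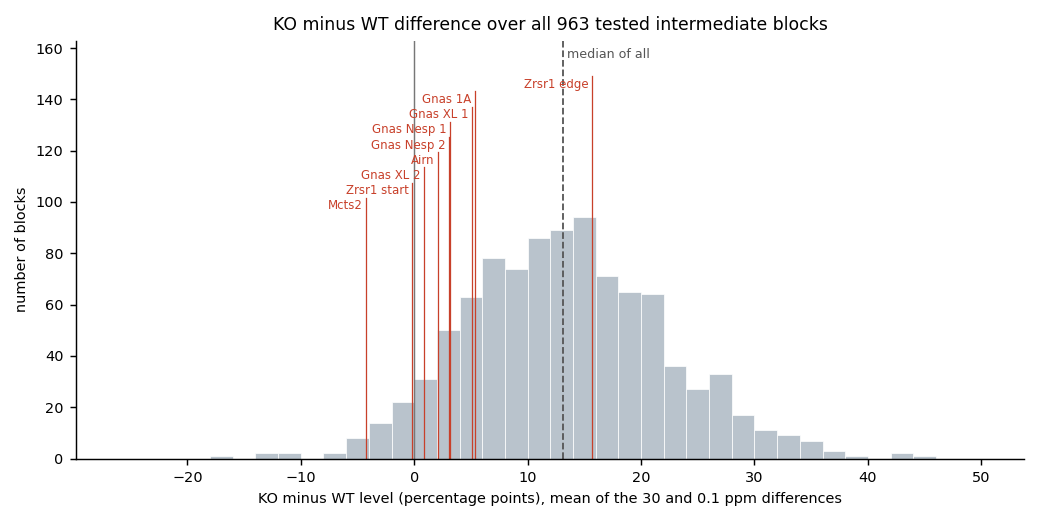
Difference of the KO and WT means in percentage points on the 30 and 0.1 ppm diets, as a histogram of the number of blocks over all 963 tested blocks, with the 9 blocks of the 7 genes marked. The histogram centres on 13.1 points, 8 of the 9 marks lie between -4.26 and 5.37 points, and the Zrsr1 edge lies at 15.7.

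At these blocks HET embryos were not told apart from WT embryos. HET embryos differed from WT by -2.49 to 4.14 points over 30 and 0.1 ppm, and 0 of 9 blocks were called by the quasi-binomial test (1 at an unadjusted p under 0.05, the first XL block), where 0.104% of all blocks were. On 3 ppm the untested HET differences were 7.58 points at Airn, 5.83 at exon 1A and 5.65 at the Zrsr1 edge, and between -2.27 and 0.605 at the other 6 blocks.

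Over whole gene windows, which also hold the unmethylated starts, KO means were above WT means in 6 of the 7 genes and none was called. With diet as a covariate, the KO mean was higher by 2.70 points at Airn (28.3 against 25.6%, adjusted p = 0.115), 3.03 at Igf2r (33.3 against 30.3%, 0.0835), 2.21 at Gnas (34.7 against 32.5%, 0.0242), 1.68 at Zrsr1 (48.7 against 47.0%, 0.218), 1.39 at Commd1 (36.603 against 35.21%, 0.303) and 0.69 at H13 (35.96 against 35.3%, 0.812), and differed by -2.64 at Mcts2 (47.9 against 50.502%, 0.400), all by the quasi-binomial test. Over embryos the SD of a window was 1.81 to 5.74 points in WT (n = 9) and 1.44 to 4.99 in KO (n = 16). Gnas passed on its p but stayed under the 5 points required for a call, and its p no longer passed with each embryo's own CpGs (0.0818), without WT replicate 1 of 30 ppm (0.0572) or without WT replicate 1 of 0.1 ppm (0.0527). Thus 0 of 7 windows were called (3 at an unadjusted p under 0.05), where 15.9% of all gene windows were, and the median difference was 1.68 points in the 7 and 1.64 over all genes. The count was also 0 of 7 on 30 ppm (1 at an unadjusted p under 0.05, 0.00395% of all called), on 3 ppm (0, 13.7%) and on 0.1 ppm (1, 9.1%). For HET against WT over all diets it was 0 of 7 (0 at an unadjusted p under 0.05, 0.0% of all), with differences between -1.35 points at Mcts2 and 2.05 at Igf2r. Without the 3 libraries that go against their Tet1 values, Airn stood at 3.61 points (adjusted p = 0.0267) and Igf2r at 3.55 (0.0372), still under 5 points, while Mcts2 stood at -0.99 and H13 at 2.27. Leaving out each embryo in turn, the KO difference ranged from -5.02 to -0.27 points at Mcts2, from 0.71 to 2.08 at Commd1 and from -0.89 to 2.26 at H13.

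Of 28 other imprinted genes listed for comparison, KO windows on 3 ppm were called higher for 4 and lower for 1, where 13.7% of all gene windows were called. The 4 with the largest differences were Snrpn, a control point of the Prader-Willi region (-10.9 points, adjusted p = 0.0486), Dlk1, a Notch-related ligand (8.55, 0.000939), Kcnq1, a potassium channel gene (8.32, 0.000585), and Peg13, a noncoding RNA (7.00, 0.0439). Over all diets Snrpn was at -0.01 points (adjusted p = 0.497), and 4 of the 28 were called higher and 0 lower (15.9% of all). On 30 ppm 0 were called by the same test (0.00395% of all) and on 0.1 ppm 1 (9.1%). Among the 18 blocks of listed genes, 2 were called for KO against WT on 30 and 0.1 ppm, both higher in KO, where 68.2% of all blocks were, and the median difference was 0.755 points against 13.1 over all blocks.

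A finer scan used tiles of 1 kb, for which a call needed an adjusted p under 0.05 together with 10 points between the means, with CpGs covered in all embryos of the comparison. For KO against WT, 0 of 31 tiles of the 7 genes were called on 30 ppm (6 at an unadjusted p under 0.05), where 5.66% of all tiles were, and 2 were called without the 2 libraries on that diet that lay apart at Tet1. The share of all tiles called was not recorded for the fit without these libraries. On 3 ppm 1 of 28 was called and 16.3% of all, on 0.1 ppm 1 of 33 and 11.2% of all, and over all diets 2 of 26 and 14.2% of all. The median difference was 1.95 points in tiles of the 7 genes on 30 ppm, 1.98 on 3 ppm, 3.00 on 0.1 ppm and 1.72 over all diets, against 2.49, 3.76, 3.85 and 2.95 over all tiles tested. KO was higher in 24 of the 26 tiles over all diets. All tiles called with all embryos kept were higher in KO. The Mcts2 tile, chr2:152686844-152686970, stood at -7.71 points on 0.1 ppm and was not called. Without WT replicate 1 of 0.1 ppm, which left 1 WT embryo there, it stood at -16.5 points (49.7 against 66.2%).

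The tile called on 3 ppm was the Zrsr1 edge, chr11:22974027-22974211 (4 CpGs), which is largely the edge block. WT embryos read 48.2, 53.7, 56.9 and 62.0%, on 51 to 407 reads summed over the 4 CpGs. KO embryos read 56.5, 69.0, 79.0, 78.0 and 76.8%, on 41 to 87 reads. KO embryos lay above every WT embryo except KO replicate 1, which lay within the WT range. The means were 55.2% ± 5.79 (SD, n = 4) and 71.9% ± 9.46 (n = 5), a difference of 16.7 points (quasi-binomial adjusted p = 0.000981). Reads weigh in this test, and WT replicate 1, the lowest WT embryo, had 407 of them. Without it the difference was 14.4 points (quasi-binomial adjusted p = 0.0348). Over all diets the difference was 16.9 points (70.4 against 53.5%, adjusted p = 7.78e-05). On 30 ppm the means were 51.2% ± 13.5 (n = 3) and 68.6% ± 9.74 (n = 6), and on 0.1 ppm 54.2% ± 7.76 (n = 2) and 70.7% ± 10.0 (n = 5), with like differences of 17.4 and 16.5 points that did not pass alone (adjusted p = 0.126 and 0.0895). Without WT replicate 2 and KO replicate 1 of 30 ppm the tile passed on that diet too, at 21.7 points (adjusted p = 0.0275). At a coverage minimum of 10 reads in every embryo the tile kept 1 CpG on 3 ppm and 0 over all diets, under the 3 a tile needed, so that the call could not be tested there, nor could that of the edge block, with 0 CpGs over the embryos compared. Ranked by absolute difference, this tile stood at 5219 of 65004 tiles on 3 ppm.

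The tile called on 0.1 ppm lies in the untranslated exon 1A of Gnas, chr2:174328405-174328738 (35 CpGs). WT embryos read 42.04 and 29.7% and KO embryos 46.7, 51.8, 60.5, 62.3 and 49.9%, so that all 5 KO embryos lay above both WT embryos. The share of all tiles set apart in this way is not given. The means were 35.8% ± 8.75 (n = 2) and 54.3% ± 6.79 (n = 5), a difference of 18.4 points (adjusted p = 0.00012), which fell to 12.2 points without WT replicate 2, the library whose Tet1 value goes against its label, with 1 WT embryo left (adjusted p = 0.00063). On 3 ppm the means over 34 CpGs were 39.9% ± 5.44 (n = 4) and 47.0% ± 6.96 (n = 5), a difference of 7.17 points that was not called (adjusted p = 0.0827, and 0.0288 with litter as a block, still under 10 points), and on 30 ppm, over 35 CpGs, they were 40.7% and 48.4% (7.66 points, adjusted p = 0.243). Over all diets the difference was 10.98 points (49.9 against 39.0%, adjusted p = 0.00437), and it fell to 8.28 points, under the 10 required, without the 3 libraries, and to 8.92 points without WT replicate 2 of 0.1 ppm. It also fell under 10 at a coverage minimum of 10 reads (9.34 points, adjusted p = 0.000694) and in 1 fit over all 9 groups (9.01 points, adjusted p = 0.0021). The exon 1A block ends within this tile, and the CpGs beyond it had lower WT levels. At 174328405 the WT and KO means were 45.9% and 62.1%, and at 174328738 they were 30.3% and 50.54%.

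**Figure D4:**
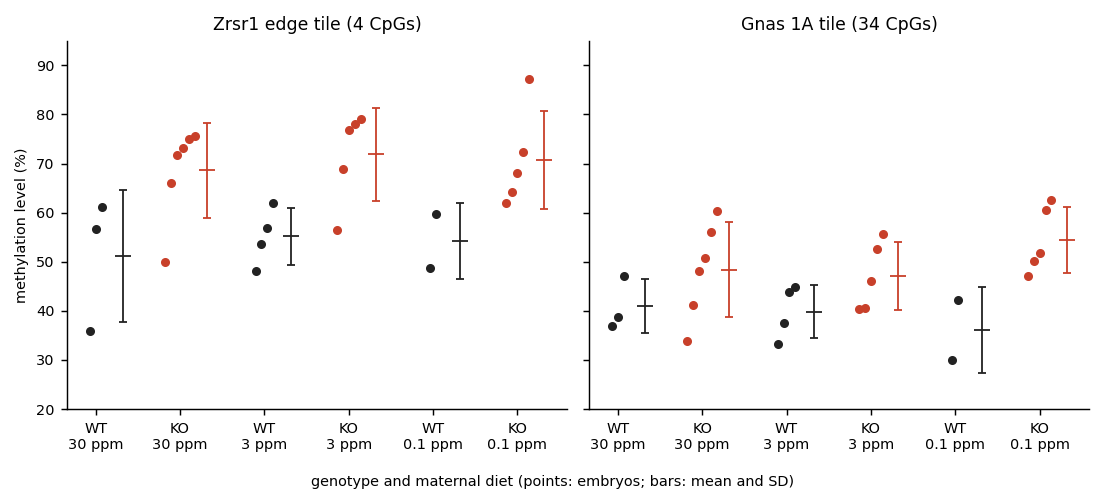
Methylation level (%) per embryo at the Zrsr1 edge tile (4 CpGs) and the Gnas exon 1A tile (34 CpGs) for WT and KO on each diet (ppm FA), with the group mean and SD. KO means lay above WT means on all 3 diets at both tiles, by 16.5 to 17.4 points at Zrsr1 and by 7.17 to 18.3 points at Gnas.

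For the remaining genes the largest tile difference on 3 ppm was not called. At Airn and Igf2r it was the tile at chr17:12742245-12742949 that holds the Airn block (52.5% in KO against 49.4% in WT, 3.06 points, adjusted p = 0.172). At Mcts2 it was chr2:152686844-152686970 (45.84 against 44.3%, 1.53 points, adjusted p = 0.699), and at H13 a tile of 3 CpGs in an intron, chr2:152676709-152676736 (94.4 against 89.5%, 4.93 points, adjusted p = 0.0894). For the Airn tile, leaving out each embryo in turn gave 1.74 to 5.30 points. Without KO replicate 5 of 3 ppm its quasi-binomial adjusted p passed (5.30 points, 0.0328), still under 10 points. On 30 ppm, without WT replicate 2 and KO replicate 1, a Gnas tile of 3 CpGs upstream of exon 1A, chr2:174326735-174326955, was called at 22.2 points (76.1 against 53.8%, adjusted p = 0.000591), where it stood at 16.4 points with them (adjusted p = 0.0576). On 0.1 ppm, without WT replicate 2, which left 1 WT embryo, 2 H13 tiles passed: chr2:152696150-152696957 at 14.2 points (adjusted p = 0.0366) and chr2:152706389-152706887 at 21.1 points (adjusted p = 5.16e-05).

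For HET against WT, 0 tiles of the 7 genes were called by the same test on 30 ppm (of 30, with 5 at an unadjusted p under 0.05, and 0.0% of all called), on 3 ppm (of 31, 5, and 0.812%), on 0.1 ppm (of 40, 6, and 0.0924%) and over all diets (of 29, 4, and 0.259%). The median HET difference over all diets was 0.65 points in these genes and 1.44 over all tiles. At the Zrsr1 edge tile HET embryos stood 3.84 points above WT (57.4 against 53.5%, adjusted p = 0.635), and at the Gnas exon 1A tile, over 12 CpGs, 3.68 points (48.5 against 44.8%, adjusted p = 0.440). Without WT replicate 2 of 30 ppm, a tile in Mcts2, chr2:152687059-152687561, was called lower in HET on that diet, by -10.2 points (45.7 against 55.9%, adjusted p = 0.03).

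The diet comparisons ask whether excess or depleted FA moved these genes within a genotype. In WT embryos 0 of 27 tiles were called for 30 against 3 ppm (4 at an unadjusted p under 0.05, 0.0% of all called) and 0 of 34 for 0.1 against 3 ppm (6, 0.131%). Without WT replicate 2 of 0.1 ppm, which left 1 WT embryo there, an H13 tile, chr2:152706389-152706887, was called lower on 0.1 ppm, by -17.7 points (66.7 against 84.4%, adjusted p = 0.0164). In KO embryos the count of called tiles was 0 of 28 (2, 0.0%) and 0 of 27 (2, 0.0%). In HET embryos it was 0 of 38 for 30 against 3 ppm (3, 0.0201%) and 1 of 37 for 0.1 against 3 ppm (4, 0.0979%). The 1 called tile was at Mcts2, chr2:152686844-152686970 (16 CpGs), where HET embryos read 53.0 and 60.2% on 0.1 ppm and 47.8, 47.5 and 42.14% on 3 ppm. The 2 embryos on 0.1 ppm lay above the 3 on 3 ppm, by 10.8 points in the mean (56.6% ± 5.09, n = 2, against 45.81% ± 3.19, n = 3, quasi-binomial adjusted p = 0.00249). The share of all tiles set apart in this way is not given. In this comparison the test gave all tiles 1 shared dispersion, and the call was lost with no SD filter (adjusted p = 0.933), in 1 fit over all 9 groups (1), with sex as a covariate (0.699), and without HET replicate 3 of either diet (8.99 points for 3 ppm, adjusted p = 0.313, and 7.23 for 0.1 ppm, adjusted p = 0.705).

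Whether the KO effect differs between diets was tested as an interaction. For 30 against 3 ppm 0 of 27 tiles of the 7 genes were called by the quasi-binomial test (0 at an unadjusted p under 0.05, 0.0% of all tiles), and for 0.1 against 3 ppm 0 of 27 (1, 0.0%). The Gnas exon 1A tile had a KO effect larger by 11.2 points on 0.1 than on 3 ppm (18.3 against 7.17), which did not pass in the quasi-binomial fit over all tiles (adjusted p = 0.975). At the Zrsr1 edge tile the effects were 16.5 and 16.7 points on these diets (adjusted p = 0.996). Differences between diets at these tiles were thus not detectable with this number of embryos.

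The blocks whose level over the 35 embryos was most like the Airn block, by root mean square distance, were 1 near Gm10741 on chromosome 10 (7.13 points), 1 near Pcdhb7 on chromosome 18 (7.30) and the Peg13 block within Trappc9 on chromosome 15 (7.33). The median distance over all blocks was 16.9 points, and part of any likeness is that all blocks started near the middle of the scale. Within the 7 genes, the first XL block (7.81), the Zrsr1 start block (7.83) and the second XL block (7.83) were nearest to Airn, and the Zrsr1 edge was farthest (16.3).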

How the data were processed

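Single E11.5 mouse brains were profiled by oxidative bisulfite RRBS after MspI and TaqI digestion. Per the methods and the submitters' processing notes, the authors trimmed reads with Trim Galore (0.6.10), aligned them to mm10 with Bismark (0.24.1) and removed duplicates with UMI-tools. The deposited tables give, per CpG, the fraction methylated and the count of covering reads as the authors made them, and fraction times count gave whole methylated reads. File positions count from 0 and were raised by 1. The authors' lists of differential regions, made with methylKit (1.26.0), hold positions only and were not used.

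Reads were pooled per 1 kb tile, gene window or block over CpGs with a coverage of 5 or more reads in every embryo compared, with at least 3 CpGs, and for tiles an SD of at least 2 points. Levels in the text are percentages of pooled reads, and differences are between means over embryos, so each embryo counts equally in a difference. In the fitted model, which gives the p-values, embryos with more reads weigh more. Methylated and unmethylated reads were fitted by a quasi-binomial logistic model with a two-sided F test, its dispersion moderated as in limma's squeezeVar (limma 3.58.1, R 4.3.3) and held at 1 or above, and p-values were adjusted by Benjamini-Hochberg over all tiles, windows or blocks tested on the autosomes. Tiles were called at an adjusted p under 0.05 and 10 points, windows and blocks at 5 points. Differences over all diets are means of the within-diet differences, with diet as a covariate. The model was tested on simulated data first. Python (3.11.15) with pandas (2.3.3), numpy (2.4.6) and scipy (1.17.1) was used, with GENCODE vM21 annotation.

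The genes, the list of other imprinted genes, the tests and the alternatives were chosen with earlier results of these data known. All 7 genes and all their blocks were named, with called tiles (up to 5 per comparison with the largest difference), the largest tile per gene on 3 ppm, the 3 blocks most like Airn and at most 4 listed genes. 1 HET library on 0.1 ppm was left out of all main fits. At these blocks the median embryo had 17.5 to 35.5 reads per CpG, and duplicates were removed by molecular identifiers. Reads of a tile, window or block are summed over its CpGs. A read that covers several CpGs is thus counted at each of them, and the number of molecules is lower than the reads given. Embryos were the replicates, and littermates share a dam.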

Additional observations from a re-analysis of the deposited data

Results flagged for a closer look

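In groups of 4 to 10 embryos, the gap of the highest or lowest embryo to its neighbour was set against Dixon's 95% limit for 105 groups of tiles, windows and blocks, of which about 1 in 20 would pass by chance. 4 passed. At the Zrsr1 edge tile, KO replicate 3 of 30 ppm read 50%, and the nearest KO embryo on that diet 66.1%. In the Commd1 window, KO replicate 2 of 30 ppm read 40.49%, and the nearest 36.47%. At the first XL block of Gnas, KO replicate 5 of 3 ppm read 55.85%, and the nearest 52.56%. At the Zrsr1 start block, KO replicate 2 of 3 ppm read 49.87%, and the nearest 48.79%. No KO effect differed between diets by the interaction test at any tile or window of the genes examined here (lowest adjusted p over their tiles 0.766 and over their windows 0.988).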

How the results depend on the processing

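Of 406 recomputed values over 67 results, 356 were rated the same, by rules that differ with the kind of value. A tested difference had to keep its sign and its side of the call. A count could change by a limited ratio, and a mean of CpG levels by less than the SD within groups. The 8 reversals were of uncalled differences near 0. The Zrsr1 edge kept its call without any single embryo, at 14.4 to 20.5 points as a tile on 3 ppm, 14.3 to 18.7 over all diets and 11.4 to 18.5 as a block, but could not be tested at 10 reads on 3 ppm or over all diets, for too few CpGs.

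Counts of called tiles in the 7 genes changed as follows, and the cause was not tested. The share of all tiles or blocks called was not recorded for these settings, so the counts have no background beside them. For KO against WT on 30 ppm (0), 2 were called without the 3 libraries that go against their Tet1 values. On 3 ppm (1) it was 0 at a coverage minimum of 10 reads, 2 at a minimum of 5 points and 0 at 20 points. On 0.1 ppm (1) it was 2 at 10 reads, 0 at 20 points, 3 with tiles moved by 500 bp and 3 without the 3 libraries. Over all diets (2) it was 0 at 10 reads, 4 at 5 points, 0 at 20 points, and 1 with tiles moved, with 1 fit over all 9 groups and without the 3 libraries. For HET against WT on 30 ppm and 0.1 against 3 ppm in WT (0 each) it was 1 without the 3 libraries, and for 0.1 against 3 ppm in HET (1) it was 0 with no SD filter, at 20 points, with tiles moved, in 1 fit over all groups and with sex as a covariate. Called blocks for KO against WT on 30 ppm (1) were 0 at 10 reads, at 10 points, with ranges of 40 to 60% or 30 to 70% and with gaps of 200 bp, and 3 without the 3 libraries. Over 30 and 0.1 ppm (3) 1 was called at 10 points and 2 at 10 reads, with either other range, with gaps of 1000 bp and without the 3 libraries, and on 0.1 ppm (2) 1 at 10 points and 1 with gaps of 1000 bp.

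Leaving out each embryo in turn gave 0 to 1 called tiles for KO against WT on 30 ppm, 1 to 2 on 3 ppm, 1 to 3 on 0.1 ppm and 1 to 2 over all diets. It gave 0 to 1 for HET against WT on each diet, 0 to 2 for 0.1 against 3 ppm in WT, 0 to 1 for both diet comparisons in HET, and 1 to 3 blocks for KO against WT. The KO difference at the Mcts2 tile on 3 ppm ranged from -0.67 to 3.61 points, the H13 window from -0.89 to 2.26 and the Zrsr1 start block from -0.81 to 0.65. HET differences ranged from -0.59 to 2.57 points (H13 window), -3.73 to 1.02 (Mcts2 window), -1.14 to 0.23 (Commd1 window), -0.76 to 1.95 (Gnas exon 1A block), -2.20 to 4.81 (Zrsr1 edge block) and -5.05 to 1.75 (Mcts2 block).

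The Commd1 window in HET, at -0.45 points, was 0.40 with each embryo's own CpGs, 0.44 at 10 reads, 0.17 without the 3 libraries and 0.0921 with the left-out HET library. Without the 3 libraries HET differences were 0.22 at the Mcts2 window, 0.47 at the Mcts2 block and -1.05 at the Gnas exon 1A block, and with the left-out library -0.14 at the last. Litter as a block changed the call of 0 of 17 values it could be fitted for, but took the adjusted p of the Gnas exon 1A tile on 3 ppm to 0.0288, with the difference still under 10 points.

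WT and HET had 2 embryos each on 0.1 ppm, so that leaving 1 out took the spread from the other group. The Zrsr1 edge rests on 4 to 6 CpGs and, as a tile, on 37 to 407 reads per embryo summed over its CpGs. RRBS read 512 CpGs of these genes in all embryos of 1773 seen in any, and CpGs far from the MspI and TaqI cuts were not read.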
